A study of Homo sapiens with 35 samples.

Results

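The RNA-seq comparison described here set U-87 MG cells with *ETS1* knockdown (KD) that had been treated with TWEAK against untreated control U-87 MG cells. The U-87 MG line derives from a human glioblastoma and is widely cultured. The members are 6 of the 12 RNA-seq libraries, and of the 35 samples of the whole series: 3 replicates of TWEAK-treated *ETS1* KD cells and 3 replicates of untreated control cells, chosen by their labels. All 16879 genes that passed the filter on low counts were tested, of 62649 gene identifiers in the count table. Cells were seeded for 24 h and starved of serum for 8 h in Optimem, and treated cells then received 10 ng/ml of TWEAK for 48 h. KD was made with the lentiviral CRISPR vector lentiCRISPRv2, and neither the guide used for these libraries nor the isolation of clones is given in their labels. The methods describe the replicates as biological. Genotype and treatment differ together between the groups, and no untreated *ETS1* KD library was analysed here, so the effect of TWEAK inside KD cells and that of KD cannot be told apart. TWEAK-treated control cells (3 libraries) are therefore given beside the main comparison. The remaining RNA-seq libraries, from TWEAK-treated *NFKB2* KD cells, entered the gene filter, the estimates of spread and the principal components but were not compared.

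TWEAK (*TNFSF12*) is a cytokine of the TNF family that binds the receptor Fn14, encoded by *TNFRSF12A*. Ligand-bound Fn14 draws TRAF2, TRAF3 and the cIAP ubiquitin ligases away from the kinase NIK (*MAP3K14*), which then accumulates and drives the processing of p100, the product of *NFKB2*, to p52. p52 pairs mainly with RelB and binds κB sequences, the non-canonical branch of NF-κB signalling. ETS1 is a transcription factor that binds GGAA-containing sites and is expressed in invasive and mesenchymal tumour cells.

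Genes of NF-κB signalling and inflammation were high: *NFKB2* was 4.2-fold, *BIRC3* 54-fold and *IL1B* 6.45-fold higher. *IL6* and *IL24*, cytokine genes that were higher in TWEAK-treated control cells, were below the untreated level in KD cells. Stress genes that did not pass the test in TWEAK-treated control cells were low, *ATF3* by 4.77-fold and *HSPA5*, which encodes the chaperone BiP, by 2.01-fold, while 27 of 44 cell cycle genes were higher.

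In all, 1050 genes were higher and 1284 lower than in untreated control cells at an adjusted p under 0.05, which is 6.22% and 7.61% of the genes tested. These shares are the background for all list counts below. Of these, 237 were at least 2-fold higher and 617 at least 2-fold lower. The median log2 fold change over all genes tested was 0.01. In TWEAK-treated against untreated control cells, which share the untreated libraries, 261 genes (1.55%) were higher and 259 (1.53%) lower. Between KD and control cells that had both received TWEAK, 43 genes (0.255%) were higher and 191 (1.13%) lower in KD cells. The 3 KD libraries all lay above the 3 untreated ones for 2853 genes (16.9%) and below them for 3037 (18%). Values per library are CPM, read counts scaled to library size and composition, and fold changes and adjusted p-values come from edgeR's quasi-likelihood test.

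Total counts of the 12 libraries ran from 28384201 to 40192606, and those of the 6 compared from 28384201 to 36200067. On the first principal component, with 28.8% of the variance, untreated libraries lay between -42.8 and -27.6 and KD libraries between 24.5 and 42.5. Untreated replicate 3 and KD replicate 2 stood apart from the others of their groups on the second component (22.7% of the variance). The correlation over genes between deviation from the mean level and GC content ran from -0.266 to 0.405 in the untreated and from -0.253 to 0.184 in the KD libraries. Genes are not independent replicates in that correlation, and list counts are also given without untreated replicate 3 or KD replicate 2, alternatives chosen after seeing the data, where that moved them by 1.5 times or more. Calls over all genes moved as well. They were 635 higher and 835 lower without KD replicate 2, 1038 and 1095 without untreated replicate 3, and 2001 and 1646 with correction for GC content and length. Of the glial markers, *VIM*, *CD44* and *NES* were among the 9 of 13 tested, while *GFAP*, *S100B* and *SOX2* did not pass the filter. Markers of blood, vascular, epithelial, neuronal and liver cells were low, with 6 of 16 tested, none called, and a summed level of 21.8 to 23.8 CPM in untreated and 20.6 to 24.2 CPM in KD libraries.

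The targeted gene, *ETS1* (chr11:128458761-128587558, minus strand, hg38), measured 42, 41.3 and 45.1 CPM in untreated replicates 1 to 3, 71.9, 73.1 and 87.6 CPM in TWEAK-treated control cells, and 28.2, 33 and 37.8 CPM in KD cells with TWEAK. KD libraries were the lowest of the 3 groups, with no overlap. Against untreated cells the log2 fold change was -0.38 ± 0.15 (SE) and missed the threshold (adjusted p = 0.117), whereas against TWEAK-treated control cells it was -1.23 ± 0.15 (adjusted p = 0.00112). *ETS1* transcripts thus remained at an abundance of 962 to 1321 counts per KD library. A CRISPR edit acts on the coding sequence and need not lower the transcript, so these values check the labels and do not measure the protein. The authors report a loss of ETS1 in their U-87 MG KD cells by western blotting. In a bulk sample, fewer cells that express a gene and less RNA per cell cannot be told apart.

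**Figure D1:**
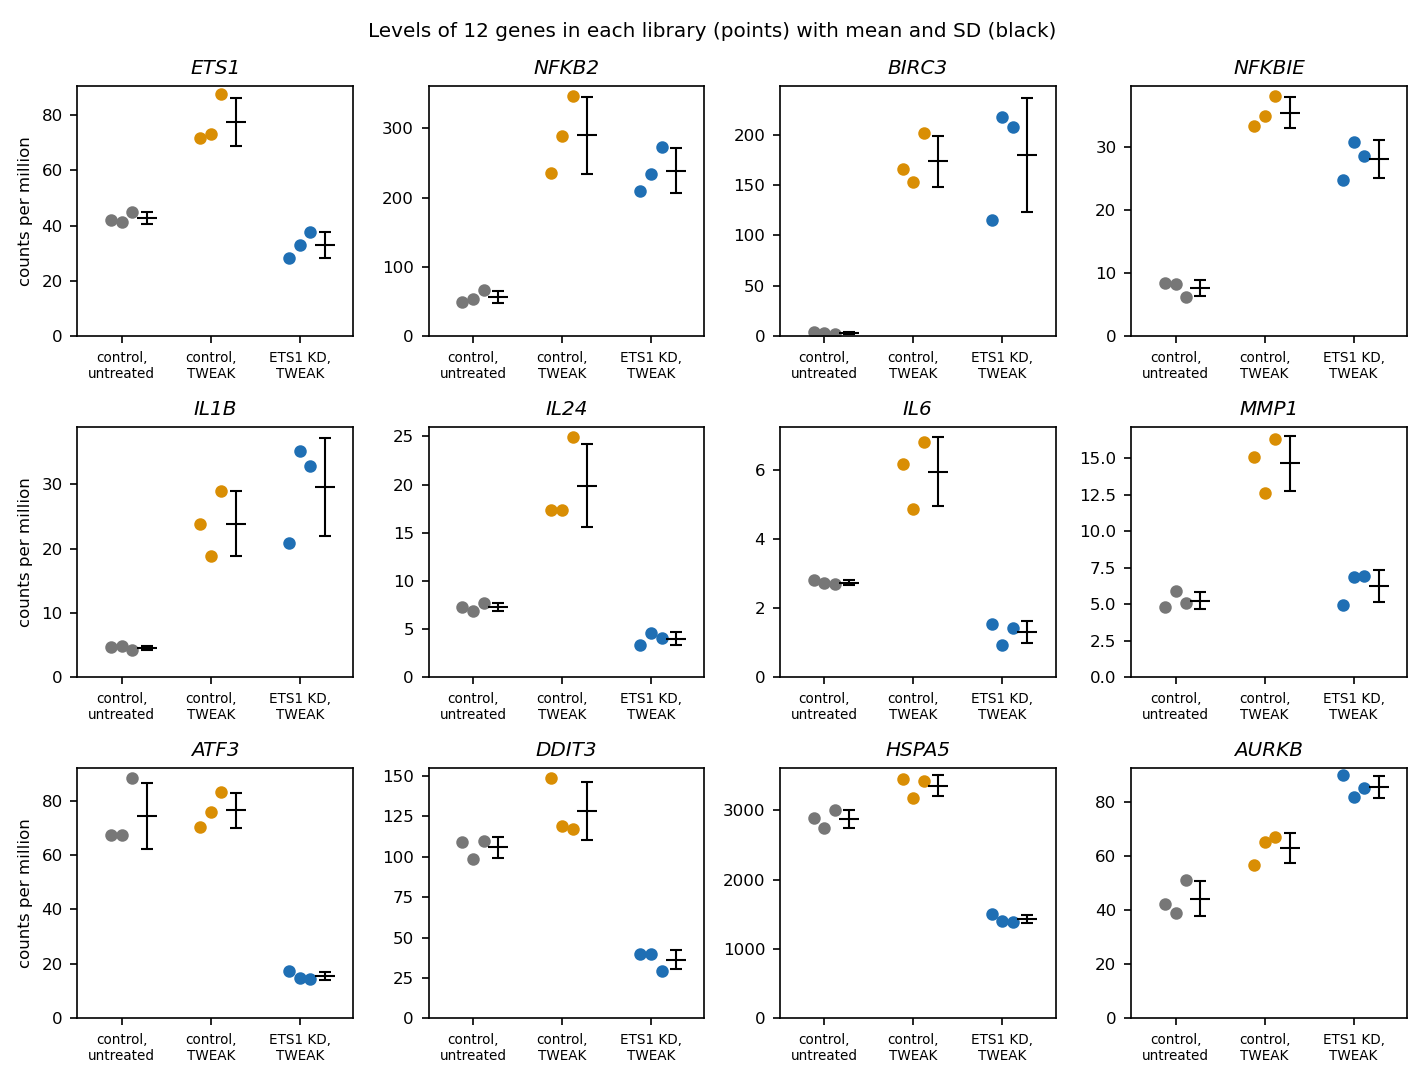
CPM (y axis, each panel with its own scale) of 12 genes in every library of untreated control (UT), TWEAK-treated control (TW) and TWEAK-treated *ETS1* KD (KD) cells; points are libraries, bars the mean and SD of 3. *NFKB2*, *BIRC3* and *IL1B* are high in both treated groups, *IL6* and *IL24* only in TW libraries, and *ATF3*, *DDIT3* and *HSPA5* are lowest in KD libraries.

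Among the NF-κB subunits, 3 of 5 were higher in KD cells with TWEAK and none was lower, with a list median of 0.51 on the log2 scale. *NFKB2* (chr10:102394110-102402524, plus strand) measured 49.6, 54.5 and 66.6 CPM in untreated, 235, 289 and 346 CPM in TWEAK-treated control and 209, 234 and 273 CPM in KD libraries. All treated libraries were above all untreated ones, and the treated groups overlapped. Its log2 fold change was 2.07 ± 0.18 in KD (adjusted p = 2.9e-05) and 2.35 in control cells, and the difference between the treated groups was -0.28 ± 0.17 (adjusted p = 0.61). *RELB*, the usual partner of p52, was at 18.6, 22.4 and 24.9 CPM in untreated and 37.4, 45.4 and 43.6 CPM in KD libraries, a log2 fold change of 0.94 ± 0.15 (adjusted p = 0.00163). *NFKB1*, which encodes p105 and p50, had a log2 fold change of 0.51 (adjusted p = 0.0221), a call that was lost without KD replicate 2 or 3 or untreated replicate 1 or 2, at 0.44 to 0.53. The canonical subunits *RELA* (0.36, adjusted p = 0.302) and *REL* (0.22, adjusted p = 0.728) did not pass the test.

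Of 13 genes of the TWEAK receptor, TRAF, cIAP and NIK pathway, 7 were higher and none lower in KD cells, and 6 were higher in TWEAK-treated control cells. *BIRC3* (chr11:102317484-102339403, plus strand) encodes cIAP2, a ubiquitin ligase that restrains NIK. It measured 4.52, 3.53 and 1.97 CPM in untreated, 166, 153 and 202 CPM in TWEAK-treated control and 115, 217 and 208 CPM in KD libraries. The lowest treated library was far above the highest untreated one. edgeR gave a log2 fold change of 5.75 ± 0.42 in KD cells (adjusted p = 9.69e-06) and 5.71 in control cells, and the treated groups differed by 0.05 ± 0.33 (adjusted p = 0.989). *BIRC2*, which encodes cIAP1, had a log2 fold change of 1.65 (adjusted p = 0.00123). Of the TRAF adaptors, *TRAF2* (1.09, adjusted p = 2.77e-05) and *TRAF3* (1.03, adjusted p = 0.000894) were higher.

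*TRAF1*, an adaptor that is itself an NF-κB target, measured 10.3, 11 and 13.6 CPM in untreated, 64.2, 83.1 and 144 CPM in TWEAK-treated control and 36.7, 55.7 and 65.3 CPM in KD libraries. Both treated groups lay above the untreated one and overlapped each other. Its log2 fold change was 2.17 in KD (adjusted p = 0.000669) and 3.06 in control cells, with a difference of -0.89 (adjusted p = 0.201). The kinase gene *MAP3K14* had a log2 fold change of 1.70 (adjusted p = 0.00326). The receptor gene *TNFRSF12A* was at 103, 121 and 118 CPM in untreated and 147, 158 and 146 CPM in KD libraries, a log2 fold change of 0.40 ± 0.10 (adjusted p = 0.0173). That call was lost without KD replicate 2 or 3 or untreated replicate 1, where the log2 fold change was 0.32 to 0.42.

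Inhibitors that NF-κB induces as feedback were also high, with 5 of 12 higher and none lower. *NFKBIE*, which encodes IκBε, measured 8.44, 8.33 and 6.16 CPM in untreated, 33.3, 35 and 38.1 CPM in TWEAK-treated control and 24.8, 30.8 and 28.6 CPM in KD libraries. KD libraries stood between the other groups without overlap. The log2 fold change was 1.88 ± 0.17 in KD (adjusted p = 3.72e-05) and 2.22 in control cells. *NFKBIA*, which encodes IκBα, was at 23.8, 26 and 25.8 CPM in untreated and 43.5, 53.2 and 57 CPM in KD libraries (log2 fold change 1.02, adjusted p = 0.001). *NFKBIZ*, which encodes the nuclear cofactor IκBζ and is named here after its values were seen, went the other way.

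*NFKBIZ* measured 17.8, 17.7 and 20.8 CPM in untreated, 28.3, 33 and 45.5 CPM in TWEAK-treated control and 13, 11.6 and 15.1 CPM in KD libraries. Its KD libraries lay below all untreated and all TWEAK-treated control libraries. On the log2 scale the fold change was 0.92 in control cells (adjusted p = 0.0406) and -0.50 in KD cells (adjusted p = 0.164), and the difference between treated groups was -1.42 (adjusted p = 0.0054). It was the 1 member of the 12 that differed between KD and control cells under TWEAK.

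**Figure D2:**
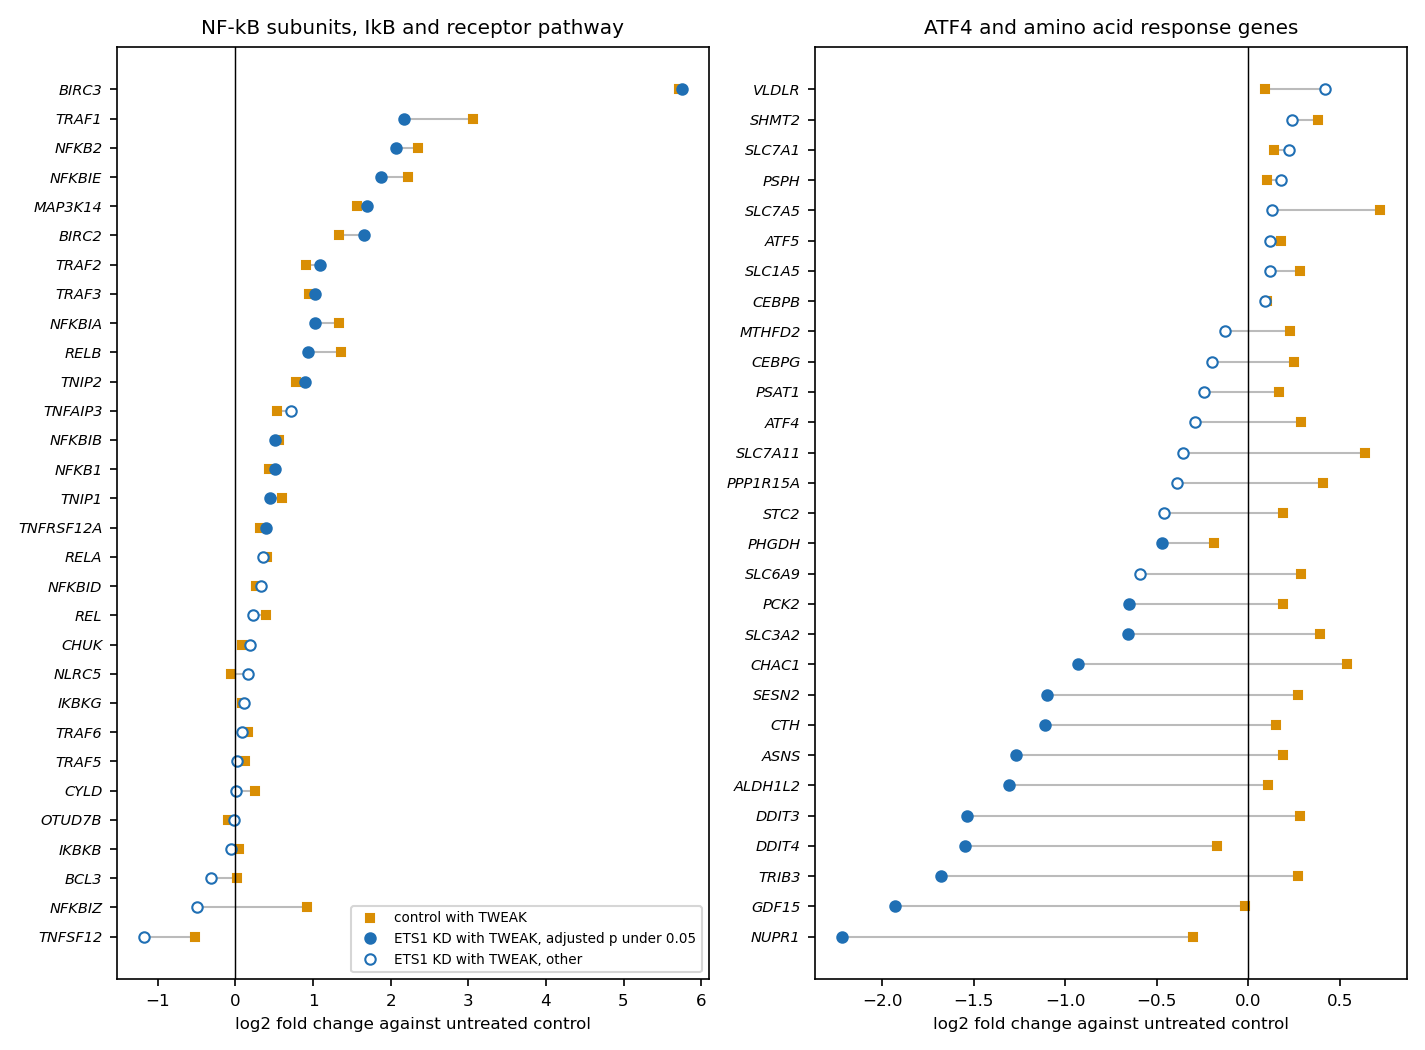
Log2 fold change against untreated control in TWEAK-treated *ETS1* KD cells (circles) and in TWEAK-treated control cells (squares), for 30 genes of the NF-κB, inhibitor and receptor pathway lists and 29 ATF4 and amino acid response genes. Filled circles have an adjusted p under 0.05 in KD cells and open circles do not. Squares are solid for every gene and do not mark a test result. The comparisons share the untreated libraries. Pathway genes such as *BIRC3* and *NFKB2* lie far above 0 in both, while 13 ATF4 genes have filled circles below 0. None of the 29 passed the test in TWEAK-treated control cells.

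Cytokine genes divided in KD cells. Of 16 interleukin and colony-stimulating factor genes tested, 9 were higher and 3 lower, and in TWEAK-treated control cells 7 were higher and none lower. *IL1B*, which encodes the inflammatory cytokine interleukin-1β, measured 4.66, 4.89 and 4.25 CPM in untreated, 23.8, 18.9 and 29 CPM in TWEAK-treated control and 20.9, 35.2 and 32.8 CPM in KD libraries. The treated groups overlapped well above the untreated one. Its log2 fold change was 2.69 ± 0.24 in KD cells (adjusted p = 4.15e-05) and 2.38 in control cells. *IL32*, which encodes a proinflammatory cytokine, was at 0.174, 0.0922 and 0.219 CPM in untreated and 3.61, 2.51 and 3.69 CPM in KD libraries, a log2 fold change of 4.31 ± 0.34 (adjusted p = 1.79e-05). *IL34*, a ligand of the CSF1 receptor (3.91, adjusted p = 0.000551), and *LIF*, a cytokine of the interleukin-6 family (1.53, adjusted p = 0.000482), were also higher.

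*IL6*, *IL24* and *TSLP* were the 3 members below the untreated level. *IL6* measured 2.81, 2.74 and 2.69 CPM in untreated, 6.17, 4.88 and 6.83 CPM in TWEAK-treated control and 1.55, 0.95 and 1.43 CPM in KD libraries. The 3 groups did not overlap, with KD cells lowest. The log2 fold change was 1.12 in control cells (adjusted p = 0.00777) and -1.06 ± 0.21 in KD cells (adjusted p = 0.00524), a 2.09-fold lower level, and the treated groups differed by -2.18 ± 0.20 (adjusted p = 0.00019). *IL24*, a cytokine of the interleukin-10 family, showed the same order.

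*IL24* was at 7.33, 6.92 and 7.75 CPM in untreated, 17.4, 17.4 and 24.9 CPM in TWEAK-treated control and 3.31, 4.63 and 4.09 CPM in KD libraries. Again no group overlapped another and KD cells were lowest. Its log2 fold change was -0.87 ± 0.17 in KD cells (adjusted p = 0.00524), 1.44 in control cells (adjusted p = 0.00051) and -2.31 between them (adjusted p = 3.17e-05). *TSLP*, which encodes an epithelial-type cytokine, was at 19.9, 18.1 and 18.7 CPM in untreated and 12.4, 13.7 and 15 CPM in KD libraries (log2 fold change -0.47, adjusted p = 0.0184). Without KD replicate 2, 6 of the 16 interleukin and colony-stimulating factor genes were higher and 2 lower.

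Of 20 chemokine genes 10 could be tested, and 4 were higher and 2 lower in KD cells, against 5 higher and none lower in TWEAK-treated control cells. *CXCL5*, a neutrophil attractant, measured 0.799, 1.2 and 0.688 CPM in untreated, 5.49, 5.18 and 8.22 CPM in TWEAK-treated control and 4.43, 5.09 and 5.89 CPM in KD libraries. Treated libraries all lay above untreated ones and overlapped each other. The log2 fold change in KD cells was 2.51 ± 0.27 (adjusted p = 0.00014). *CXCL8*, which encodes interleukin-8, was at 6.15, 6.52 and 4.78 CPM in untreated and 9.44, 15.3 and 14.5 CPM in KD libraries (log2 fold change 1.17, adjusted p = 0.0057). *CXCL3* (1.56, adjusted p = 0.00738) and *CCL3* (1.92, adjusted p = 0.00365) were the other higher members, and *CCL3* was lower in KD than in control cells under TWEAK (-1.33, adjusted p = 0.0424). *CCL3* has near-identical copies, so its counts are uncertain.

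*CXCL2*, named after its values were seen, is a close relative of *CXCL3*. It measured 7.3, 7.16 and 9.56 CPM in untreated, 25.4, 32.3 and 41.2 CPM in TWEAK-treated control and 11.3, 12 and 14.2 CPM in KD libraries. KD libraries lay slightly above untreated libraries and far below TWEAK-treated control libraries. The log2 fold change in KD cells was 0.64 (adjusted p = 0.11), in control cells 2.04, and between them -1.40 (adjusted p = 0.0109). The lower members were *CCL26* (-1.20, adjusted p = 0.0254; not called without any 1 of the 6 libraries but untreated replicate 3, at -1.27 to -1.04) and *CCL2* (-0.86, adjusted p = 0.0428), a monocyte attractant, and the count of lower members was 0 without KD replicate 2 and 1 without untreated replicate 3.

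Of 17 adhesion and antigen presentation genes tested, 8 were higher and 1 lower in KD cells, and 5 were higher without KD replicate 2. *B2M*, the light chain of MHC class I, was at 907, 880 and 850 CPM in untreated and 1322, 1217 and 1279 CPM in KD libraries, a log2 fold change of 0.53 (adjusted p = 0.00213). *HLA-B*, a class I heavy chain, was at 135, 133 and 155 CPM in untreated, 216, 249 and 231 CPM in TWEAK-treated control and 362, 267 and 315 CPM in KD libraries. KD libraries were highest with no overlap, the log2 fold change was 1.16 (adjusted p = 0.000246), and HLA genes have near-identical copies that leave the split of their counts uncertain. The lower member was *CD40*, a TNF-family receptor that also acts through TRAF proteins, at 6.43, 5.22 and 6.91 CPM in untreated and 3.67, 3.07 and 2.29 CPM in KD libraries (log2 fold change -1.04, adjusted p = 0.00406).

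To show which of these genes carried p52 at their start sites, peaks called by the authors from ChIP-seq of p52 were placed on the tested genes. A gene was counted when both libraries of a ChIP group had a peak from 1000 bp before to 100 bp after any start annotated for its transcripts in GENCODE, so genes with more annotated starts have more windows. In untreated control cells 0 of the 1050 genes higher in KD cells with TWEAK and 3 of all 16873 genes with a start site had one. In TWEAK-treated control cells the count was 73 of 1050 (6.95%, exact 95% interval 5.49 to 8.66%), against 36 of 1284 genes lower (2.8%) and 656 of all (3.89%). In KD cells made with guide 1 it was 33 higher genes (3.14%, 2.17 to 4.39%), 17 lower genes (1.32%) and 276 of all (1.64%), and in those made with guide 2 it was 76 (7.24%, 5.74 to 8.98%), 37 (2.88%) and 675 of all (4%). In each p52 group under TWEAK the percentage was thus highest for genes higher in KD cells, and most genes that were higher had no p52 peak at the start site by this rule. The intervals cover counting of genes, which are not replicates, and peak numbers differed between libraries, from 1387 to 4252 in the 4 p52 libraries of KD cells.

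**Figure D3:**
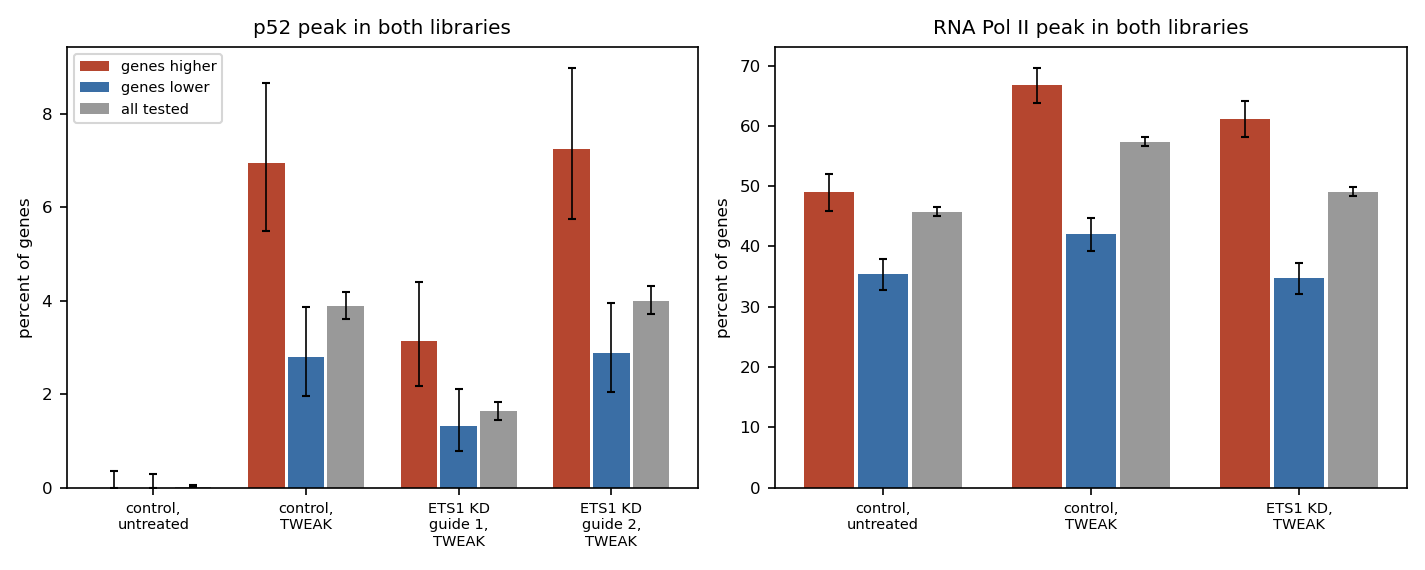
Percent of genes (y axis) with a peak at the start site in both libraries of each ChIP group, for genes higher, genes lower and all genes tested in TWEAK-treated *ETS1* KD against untreated control cells; bars carry exact 95% intervals over genes. p52 under TWEAK reached 6.95%, 3.14% and 7.24% of genes higher in control, guide 1 and guide 2 cells; RNA Pol II reached 61.1% of genes higher and 34.7% of genes lower in KD cells.

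Of the 157 genes named by the fixed rule, 9 had a p52 peak at the start site in all 4 p52 libraries of *ETS1* KD cells, and of these 7 were higher (*NFKB2*, *RELB*, *NFKBIA*, *NFKBIB*, *TNIP1*, *CXCL3* and *B2M*), *REL* was not called and *BBC3* was lower. None of the 9 had a p52 peak in untreated control cells. Most named genes were picked by p or size of change in this comparison, and 136 of the 157 were called. The 7 of 9 is thus largely set by that choice. Over all 16873 genes with a start site, 267 (1.58%) had such peaks with none in untreated control cells. They comprised 33 of the 1050 higher genes (3.14%) and 16 of the 1284 lower genes (1.25%). At *NFKB2* the p52 summit lay 2 bp (guide 1) and 19 bp (guide 2) from the nearest annotated start in KD cells and 3 bp in TWEAK-treated control cells. *IL32* and *PI3* had a peak in both guide 2 libraries and in replicate 2 alone of guide 1. *BIRC3* had one only in replicate 1 of guide 2 and replicate 2 of TWEAK-treated control cells, and *IL1B* had none in any p52 library. *IL6*, *ATF3*, *NUPR1*, *GDF15* and *HSPA5* had no p52 peak at the start site in any library, and the nearest p52 summit in both TWEAK-treated control libraries lay 125910 bp from the nearest annotated start of *IL6*.

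The start windows of 4 genes are shown because they hold letters of the κB motif and differ in p52 peaks and in RNA. *CXCL3*, *IL32* and *B2M* were higher and *IL6* was lower. Peaks of p52 overlapped the windows of *CXCL3* and *B2M* in all 4 p52 libraries of KD cells and that of *IL32* in 3 of 4, and no p52 peak overlapped that of *IL6* in any library. Each window runs from 250 bases before to 50 bases after the RefSeq start, read on the strand of the gene (GRCh38.p14), and capitals mark matches to GGGANNNNCC on either strand. The windows are chr4:74038640-74038939 (minus) for *CXCL3*, chr16:3065153-3065452 (plus) for *IL32*, chr15:44711267-44711566 (plus) for *B2M* and chr7:22726950-22727249 (plus) for *IL6*.
CXCL3: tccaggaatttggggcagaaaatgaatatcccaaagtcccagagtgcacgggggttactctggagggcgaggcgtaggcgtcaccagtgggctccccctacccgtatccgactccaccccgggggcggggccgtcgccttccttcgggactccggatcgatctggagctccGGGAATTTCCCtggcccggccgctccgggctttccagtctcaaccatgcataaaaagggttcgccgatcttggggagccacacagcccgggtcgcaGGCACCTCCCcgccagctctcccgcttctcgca
IL32: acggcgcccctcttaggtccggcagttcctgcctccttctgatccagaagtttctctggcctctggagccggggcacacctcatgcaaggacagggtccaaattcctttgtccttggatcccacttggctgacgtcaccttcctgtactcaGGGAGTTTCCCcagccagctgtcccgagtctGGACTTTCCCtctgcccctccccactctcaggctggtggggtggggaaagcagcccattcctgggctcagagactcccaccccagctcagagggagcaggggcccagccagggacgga
B2M: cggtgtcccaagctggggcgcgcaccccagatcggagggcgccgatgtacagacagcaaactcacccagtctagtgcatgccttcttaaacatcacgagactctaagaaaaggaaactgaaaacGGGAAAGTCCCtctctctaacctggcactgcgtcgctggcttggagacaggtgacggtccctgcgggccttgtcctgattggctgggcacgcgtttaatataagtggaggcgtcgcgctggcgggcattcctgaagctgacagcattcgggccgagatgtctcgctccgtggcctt
IL6: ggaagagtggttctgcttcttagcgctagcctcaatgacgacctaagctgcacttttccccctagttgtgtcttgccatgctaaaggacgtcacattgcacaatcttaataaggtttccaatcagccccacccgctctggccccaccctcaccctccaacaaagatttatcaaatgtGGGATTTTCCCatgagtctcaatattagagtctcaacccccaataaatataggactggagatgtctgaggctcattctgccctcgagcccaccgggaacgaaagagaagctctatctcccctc

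The *CXCL3* window has overlapping matches whose first bases lie at -79 and -78 from the start and another at 17, *IL32* has overlapping matches at -99 and -98 and another at -68, *B2M* has overlapping matches at -126 and -125, and *IL6* has overlapping matches at -73 and -72. The motif letters thus stand in the *IL6* window as well as in those of the 3 genes with p52 peaks. Other named genes did not follow this pattern. The *REL* window holds the letters and p52 peaks in all p52 libraries of KD cells, but *REL* was not called. The windows of *BIRC2* and *CXCL8*, both higher, hold the letters and no p52 peak in any library. The same letters occur in 6852 of 27305 RefSeq windows of this length (25.1%), so a match is a description of the letters and not a binding site. Over the lists, they stood in 4 of 4 NF-κB subunit genes with a window, 5 of 10 inhibitor genes, 3 of 10 receptor pathway genes and 5 of 8 chemokine genes, and also in 12 of 20 p53 targets, 10 of 19 cholesterol genes and 11 of 26 JAK-STAT genes.

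RNA polymerase II (Pol II) peaks at start sites were found in both libraries of KD cells with TWEAK for 642 of the 1050 higher genes (61.1%), 445 of the 1284 lower genes (34.7%) and 8280 of all (49.1%). In untreated control cells the values were 514 (49%), 454 (35.4%) and 7717 (45.7%). Genes at least 2-fold higher had lower shares than all genes, with 95 of 237 (40.1%) in KD and 69 (29.1%) in untreated cells. Of genes at least 2-fold lower, 111 of 617 (18%) had a peak in KD and 135 (21.9%) in untreated cells. A peak in both KD libraries and neither untreated library was present at 18 higher genes (1.71%), 1 lower gene and 78 of all (0.462%), and *BIRC3* was one of them. The opposite pattern was present at 6 higher genes, 40 lower genes (3.12%) and 327 of all (1.94%). Peaks of ETS1 itself in untreated control cells were at the start sites of 70 higher (6.67%), 80 lower (6.23%) and 848 of all genes (5.03%).

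The ATF4 and amino acid response list stood lowest. ATF4 is a transcription factor whose translation rises when amino acids are scarce or the endoplasmic reticulum is stressed, and it raises genes of amino acid synthesis, transport and stress. Of 29 genes tested, 13 were lower and none higher in KD cells with TWEAK, with a list median of -0.46, while in TWEAK-treated control cells none was called and the median was 0.19. Between KD and control cells under TWEAK, 12 were lower and none higher, with a median of -0.80. In 17 of 29 genes the KD libraries all lay below the untreated ones, and in 5 they all lay above, against 18% and 16.9% of all genes tested. The 5 above are thus near the share over all genes. The count lower was 10 to 14 without untreated replicate 3, without KD replicate 2, with correction for GC content or with DESeq2.

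*ATF3* (chr1:212565334-212620777, plus strand), a stress-induced repressor, measured 67.3, 67.3 and 88.3 CPM in untreated, 70.5, 75.7 and 83.2 CPM in TWEAK-treated control and 17.4, 14.9 and 14.5 CPM in KD libraries. The control groups overlapped and KD libraries were far below both. *ATF3* was counted in the AP-1 list and not in the ATF4 list. edgeR gave a log2 fold change of -2.25 ± 0.16 (adjusted p = 9.66e-06), a 4.77-fold lower level, against 0.04 in TWEAK-treated control cells (adjusted p = 0.946). *GDF15*, which encodes a stress cytokine, was at 49.5, 59.5 and 64.2 CPM in untreated and 14.9, 15.6 and 15.1 CPM in KD libraries (log2 fold change -1.93, adjusted p = 1.01e-05). *NUPR1*, a stress-induced chromatin protein, was at 30.9, 27.1 and 25.2 CPM in untreated and 7.71, 5.61 and 4.55 CPM in KD libraries (log2 fold change -2.22, adjusted p = 2.77e-05).

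*DDIT3*, which encodes the proapoptotic factor CHOP, was at 109, 98.4 and 110 CPM in untreated, 149, 119 and 117 CPM in TWEAK-treated control and 40.1, 39.8 and 29.3 CPM in KD libraries. KD libraries did not overlap either control group. On the log2 scale the fold change was -1.54 ± 0.18 (adjusted p = 0.000198), and 27.2% of its exon bases overlap *MARS1*, so its counts are less certain if strand was not used. *TRIB3*, a pseudokinase induced by CHOP, was at 32.7, 35.3 and 44.6 CPM in untreated and 11.2, 13.5 and 10.4 CPM in KD libraries (log2 fold change -1.68, adjusted p = 0.000215). *CTH*, the last enzyme of cysteine synthesis from methionine (-1.11, adjusted p = 0.000482), and *CHAC1*, which degrades glutathione (-0.93, adjusted p = 0.00135), were also lower.

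*ATF4* transcripts were at 235, 231 and 242 CPM in untreated, 311, 290 and 265 CPM in TWEAK-treated control and 208, 179 and 193 CPM in KD libraries. KD libraries were lowest without overlap, but the difference from untreated cells did not pass the test (log2 fold change -0.29, adjusted p = 0.0778), whereas that from TWEAK-treated control cells did (-0.58, adjusted p = 0.0101). Among 20 cytosolic aminoacyl-tRNA synthetases, many of which respond to ATF4, only *AARS1* and *GARS1* were lower and *VARS1* was higher. *AARS1*, the alanine enzyme, was at 286, 286 and 290 CPM in untreated and 166, 175 and 155 CPM in KD libraries (log2 fold change -0.80 ± 0.09, adjusted p = 0.000144). *GARS1* had a log2 fold change of -0.64 (adjusted p = 0.00138) and *VARS1* one of 0.51 (adjusted p = 0.00938, lost without untreated replicate 2 at 0.47).

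Of 26 genes of the IRE1, XBP1 and ATF6 branches of the unfolded protein response, which handles misfolded proteins in the endoplasmic reticulum, 4 were lower and none higher. *HSPA5* (chr9:125234853-125241382, minus strand), which encodes the chaperone BiP, measured 2889, 2740 and 3000 CPM in untreated, 3455, 3183 and 3425 CPM in TWEAK-treated control and 1500, 1405 and 1390 CPM in KD libraries. The 3 groups did not overlap. By edgeR the log2 fold change was -1.01 ± 0.10 (adjusted p = 6.68e-05), and -1.23 against TWEAK-treated control cells (adjusted p = 5.06e-05). *HERPUD1*, a membrane protein of protein degradation, was at 98.4, 96.5 and 112 CPM in untreated and 55.8, 50.2 and 53.8 CPM in KD libraries (log2 fold change -0.94, adjusted p = 0.000261). The others were *DNAJB9* (-0.78, adjusted p = 0.0157) and *EDEM1* (-0.50, adjusted p = 0.0243), both lost in several fits that left out 1 library: *DNAJB9* without KD replicate 1 or 3 or untreated replicate 1 or 2 (-0.75 to -0.68), and *EDEM1* without any 1 of the 6 libraries but untreated replicate 1 (-0.54 to -0.39).

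*ERN1*, which encodes the sensor IRE1α, was at 9.76, 9.34 and 13.6 CPM in untreated, 12.8, 17 and 25 CPM in TWEAK-treated control and 13.5, 11.5 and 15.7 CPM in KD libraries. The groups overlapped, and the log2 fold change of 0.32 missed the threshold (adjusted p = 0.443). *XBP1*, the transcript that IRE1α splices, was also not called (-0.25, adjusted p = 0.418). The start windows of 3 of the lower genes are shown because they hold letters of the C/EBP-ATF response element. That element is the composite sequence bound by ATF4 and its C/EBP partners. Capitals mark TGATGNAA on either strand, in chr1:212565157-212565456 (plus) for *ATF3*, chr16:70289457-70289756 (minus) for *AARS1* and chr16:56931892-56932191 (plus) for *HERPUD1*.
ATF3: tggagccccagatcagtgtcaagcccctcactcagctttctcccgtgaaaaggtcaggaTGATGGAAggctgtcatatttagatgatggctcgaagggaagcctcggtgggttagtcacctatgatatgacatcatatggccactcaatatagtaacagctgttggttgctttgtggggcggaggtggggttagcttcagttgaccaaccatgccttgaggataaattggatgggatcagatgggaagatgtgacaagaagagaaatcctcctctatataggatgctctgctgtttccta
AARS1: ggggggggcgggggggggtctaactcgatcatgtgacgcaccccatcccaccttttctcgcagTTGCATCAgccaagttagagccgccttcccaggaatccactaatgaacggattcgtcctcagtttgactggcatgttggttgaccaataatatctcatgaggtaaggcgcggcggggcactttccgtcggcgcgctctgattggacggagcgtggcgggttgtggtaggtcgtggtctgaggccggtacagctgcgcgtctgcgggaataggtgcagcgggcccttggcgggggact
HERPUD1: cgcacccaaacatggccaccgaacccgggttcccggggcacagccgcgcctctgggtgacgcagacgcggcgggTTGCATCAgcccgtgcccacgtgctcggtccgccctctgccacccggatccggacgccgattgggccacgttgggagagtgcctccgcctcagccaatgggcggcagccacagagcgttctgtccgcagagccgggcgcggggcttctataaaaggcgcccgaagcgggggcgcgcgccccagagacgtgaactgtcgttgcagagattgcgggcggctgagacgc

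The first base of the match lies at -191 in *ATF3*, -187 in *AARS1* and -176 in *HERPUD1*, and the last 2 are read from the opposite strand. These letters occur in 1003 of 27305 windows (3.67%). None of the 3 genes shown is in the ATF4 list. The letters were found in 4 of the 24 ATF4 list genes with a window (16.7%), which are *CHAC1*, *ASNS*, *SLC3A2* and *SLC7A1*, and in 6 of 16 aminoacyl-tRNA synthetase genes (37.5%). Of those 6 only *AARS1* was lower, and the window of *GARS1*, also lower, holds no match. The windows of *DDIT3*, *TRIB3* and *GDF15*, all lower in KD cells, hold no match. That of *HRK*, also lower, holds one at -75 that is not shown. A match describes the letters and is not a binding site. Binding of ATF4 was not measured.

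Cell cycle and DNA replication genes were higher as a group: 27 of 44 were higher and none lower. The list median was 0.51 on the log2 scale. KD libraries all lay above untreated ones in 36 of 44, against 16.9% of all genes tested. In TWEAK-treated control cells 4 were higher, with a median of 0.27. None was called between KD and control cells under TWEAK, a comparison in which 0.255% of all genes were higher. The log2 fold change there was positive for 41 of 44, with a median of 0.28. Summed over the list, levels were 5490 to 6016 CPM in untreated and 7920 to 9067 CPM in KD libraries. *AURKB*, a mitotic kinase, was at 42.5, 39 and 51.4 CPM in untreated, 56.8, 65.4 and 67.2 CPM in TWEAK-treated control and 90.1, 81.9 and 85.4 CPM in KD libraries, 3 levels without overlap. Its log2 fold change was 0.95 ± 0.12 (adjusted p = 0.000412). *CDC20*, an activator of the anaphase-promoting complex, was at 136, 141 and 149 CPM in untreated and 253, 266 and 246 CPM in KD libraries (log2 fold change 0.84, adjusted p = 0.000534). *RRM2*, a subunit of ribonucleotide reductase, had a log2 fold change of 0.85 (adjusted p = 0.000638). The count higher was 18 of 44 without KD replicate 2 and 35 of 44 with correction for GC content, fits in which 635 and 2001 of all genes were higher.

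Of 25 targets of p53, the tumour suppressor that arrests the cell cycle after damage, 9 were lower and 4 higher. *CDKN1A*, which encodes the cell cycle inhibitor p21, measured 258, 275 and 282 CPM in untreated, 218, 224 and 215 CPM in TWEAK-treated control and 174, 184 and 171 CPM in KD libraries. KD libraries were lowest without overlap, with a log2 fold change of -0.62 (adjusted p = 0.00214). *SESN2*, an inhibitor of mTORC1 that ATF4 also induces, had a log2 fold change of -1.10 (adjusted p = 0.0025). *ZMAT3*, an RNA-binding protein (-0.83), and *SESN1* (-0.60) were lower as well. Without KD replicate 2, 7 were lower and 0 higher, and without untreated replicate 3, 7 were lower and 2 higher.

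In the BCL2 family, which sets the threshold for apoptosis, 3 of 14 genes were lower and 2 higher, and all 3 lower ones encode proapoptotic BH3-only proteins. Without KD replicate 2, 2 were lower and 1 higher, and without untreated replicate 3, 2 were lower and 2 higher. *BMF* was at 3.65, 4.09 and 5.34 CPM in untreated, 2.62, 2.19 and 2 CPM in TWEAK-treated control and 1.2, 1.13 and 0.944 CPM in KD libraries, 3 separate levels. By edgeR the log2 fold change was -1.99 ± 0.22 (adjusted p = 0.000161). *HRK* was at 26.4, 30 and 39.5 CPM in untreated and 10.2, 8.55 and 10.3 CPM in KD libraries (log2 fold change -1.72, adjusted p = 0.000318). *BBC3*, which encodes PUMA, had a log2 fold change of -0.62 (adjusted p = 0.0285), a call lost without KD replicate 2 or 3 or untreated replicate 2 or 3 (-0.61 to -0.47). The antiapoptotic *MCL1* was at 249, 255 and 253 CPM in untreated and 362, 415 and 455 CPM in KD libraries (log2 fold change 0.70, adjusted p = 0.00106).

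Of 17 matrix metalloproteinases and their inhibitors, 3 were higher and 2 lower, and the lower count was 1 without KD replicate 2 (2 higher) and 1 without untreated replicate 3 (3 higher). *MMP9* (chr20:46008908-46016561, plus strand), a gelatinase, had 0 counts in each untreated library, 18, 51 and 118 counts in TWEAK-treated control and 63, 63 and 84 counts in KD libraries. Taking a floor of 3 counts over the untreated group, it was at least 64.3-fold higher in KD cells (adjusted p = 0.000826). The collagenase gene *MMP1*, named after its values were seen, was at 4.8, 5.9 and 5.06 CPM in untreated, 15.1, 12.6 and 16.3 CPM in TWEAK-treated control and 4.96, 6.84 and 6.95 CPM in KD libraries. KD and untreated libraries overlapped, and both lay below TWEAK-treated control libraries.

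The log2 fold change of *MMP1* was 1.48 in control cells (adjusted p = 0.00069) and 0.25 in KD cells (adjusted p = 0.422), and the treated groups differed by -1.23 (adjusted p = 0.00364). The metalloproteinase inhibitor *TIMP1* went further in KD cells than in control cells. It was at 199, 196 and 254 CPM in untreated, 248, 300 and 303 CPM in TWEAK-treated control and 521, 419 and 505 CPM in KD libraries, with a log2 fold change of 1.15 (adjusted p = 0.000214) and a difference from TWEAK-treated control cells of 0.76 (adjusted p = 0.0108). *MMP14*, a membrane-anchored protease, was lower (-0.78, adjusted p = 0.0155), a call lost without KD replicate 2 (-0.68) or untreated replicate 3 (-0.61).

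In the plasminogen activator system 4 of 8 genes were higher and 1 lower, and the lower call was lost without KD replicate 2 (3 higher) and without untreated replicate 3 (5 higher). The urokinase receptor gene *PLAUR* (0.85, adjusted p = 0.000462) and *ANXA2*, a plasminogen receptor component (0.81, adjusted p = 0.00188), were among those higher. Of 36 collagen, laminin and basement membrane genes, 5 were higher and 5 lower. All lower calls were lost without KD replicate 2 (4 higher, 0 lower), and the counts were 7 and 2 without untreated replicate 3 and 11 and 7 with correction for GC content. *COL4A2*, a chain of basement membrane collagen, was at 3.58, 2.31 and 4.34 CPM in untreated and 10.7, 12.1 and 11.1 CPM in KD libraries (log2 fold change 1.73, adjusted p = 0.000214), and was higher than in TWEAK-treated control cells by 0.95 (adjusted p = 0.0301).

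Of 16 integrins 2 were higher and 2 lower, where 6.22% of all genes tested were higher and 7.61% lower. *ITGA2*, a collagen-binding subunit, was at 72.8, 75.5 and 67 CPM in untreated and 158, 254 and 275 CPM in KD libraries (log2 fold change 1.67, adjusted p = 0.000957). *ITGA11*, another collagen-binding subunit, was at 1.98, 2.74 and 4.41 CPM in untreated, 0.323, 0.921 and 0.75 CPM in TWEAK-treated control and 0.205, 0.0307 and 0.172 CPM in KD libraries, the last near the limit of detection (log2 fold change -4.44, adjusted p = 0.00163). Of 20 mesenchymal state genes 4 were higher and 2 lower, with counts of 3 and 1 without KD replicate 2 and 6 and 1 without untreated replicate 3. *VIM*, which encodes the intermediate filament vimentin, was at 9140, 9108 and 9088 CPM in untreated, 16368, 15375 and 16286 CPM in TWEAK-treated control and 14877, 17685 and 16501 CPM in KD libraries. The treated groups overlapped above the untreated one, with a log2 fold change of 0.84 in KD cells (adjusted p = 0.000315). *CHI3L1*, a secreted glycoprotein of mesenchymal glioma, was at 269, 263 and 305 CPM in untreated, 56.3, 69.9 and 55.6 CPM in TWEAK-treated control and 106, 88.1 and 87.2 CPM in KD libraries. Its log2 fold change of -1.57 ± 0.47 (adjusted p = 0.0435) was lost in each fit without 1 library, at -1.68 to -1.51.

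**Figure D4:**
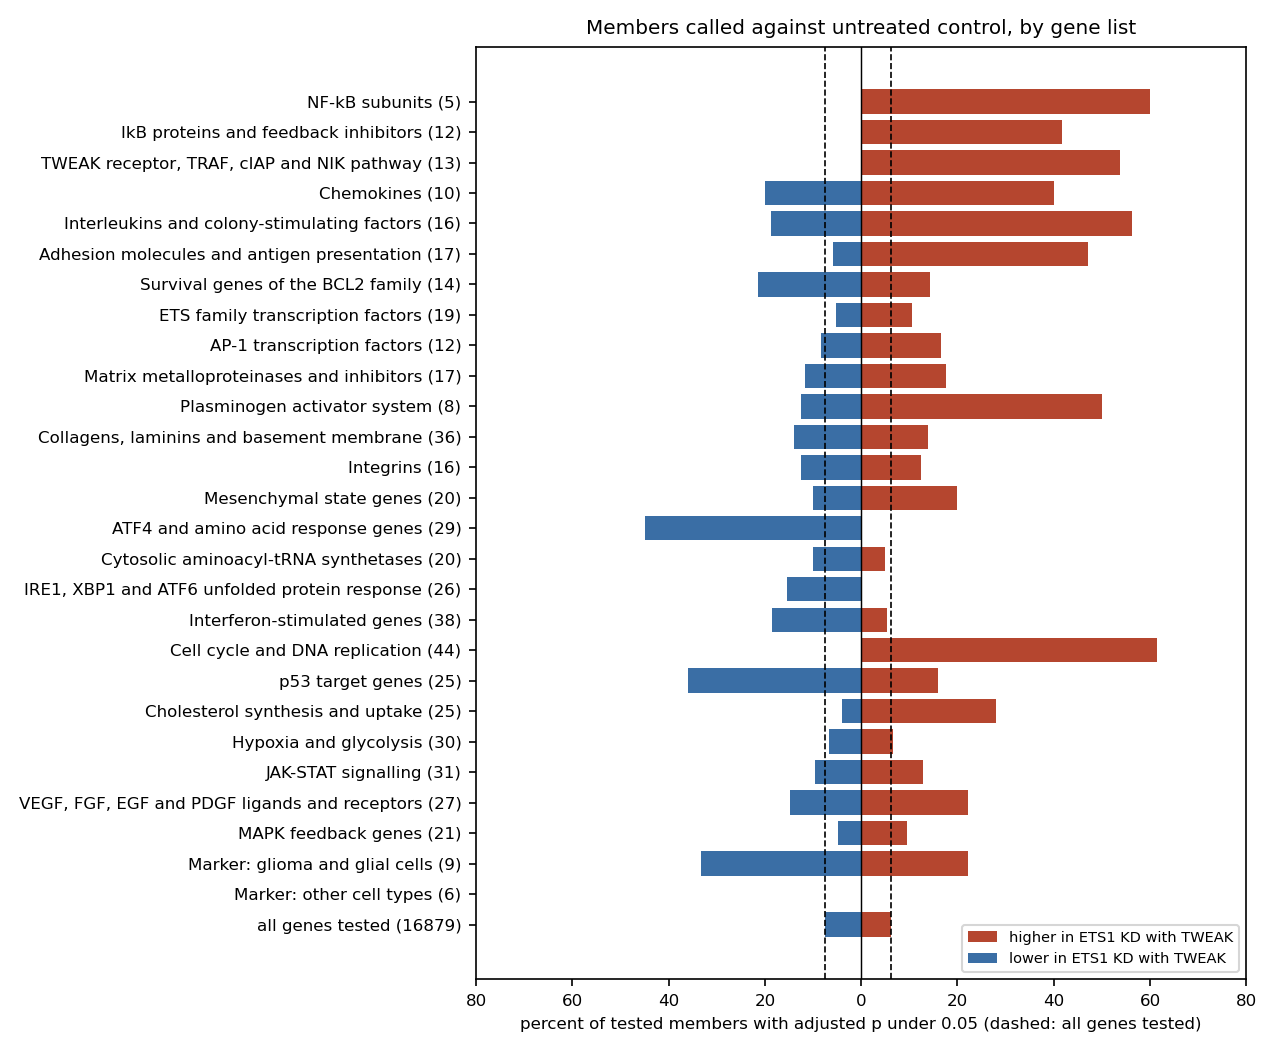
Percent of tested members of each gene list (x axis) that were higher or lower in TWEAK-treated *ETS1* KD than in untreated control cells at an adjusted p under 0.05; dashed lines mark all genes tested, 6.22% higher and 7.61% lower. Cell cycle genes (27 of 44 higher) and ATF4 genes (13 of 29 lower) lean to opposite sides.

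Among growth factor ligands and receptors, 6 of 27 were higher and 4 lower, and 2 were lower without KD replicate 2 as well as without untreated replicate 3. *HBEGF*, a ligand of the EGF receptor, was at 35.3, 32.3 and 33.1 CPM in untreated, 80.3, 83 and 86.9 CPM in TWEAK-treated control and 81.4, 89.7 and 102 CPM in KD libraries. The treated groups overlapped and both lay above the untreated group, with a log2 fold change of 1.44 in KD cells (adjusted p = 1.94e-05). *EREG*, another ligand of that receptor, was at 55, 56.9 and 56.7 CPM in untreated and 167, 222 and 279 CPM in KD libraries (log2 fold change 1.99, adjusted p = 0.000634). *PDGFRA*, the PDGF receptor α, was lower, at 2.05, 1.38 and 2.09 CPM in untreated and 0.411, 0.337 and 0.343 CPM in KD libraries (log2 fold change -2.33, adjusted p = 0.00192).

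Over all genes tested 6.22% were higher and 7.61% lower, and the counts of the ETS, hypoxia and MAPK feedback lists below lie near those shares. In the ETS family 2 of 19 genes were higher, *ETV4* (0.73) and *ETS2* (0.61), and *ELF5* was lower (-0.96). *ETV4* lost its call without KD replicate 3 or untreated replicate 1 (0.66 and 0.64), *ETS2* without KD replicate 2 or 3 or untreated replicate 1 or 2 (0.53 to 0.57), and *ELF5* without KD replicate 2 or 3 or untreated replicate 1 (-0.94 to -0.71). Over the family the counts were 1 higher and 1 lower without KD replicate 2 and 3 and 2 without untreated replicate 3. In the AP-1 family *FOSL1* (1.30, adjusted p = 0.0222, lost without KD replicate 1 or 3 or untreated replicate 1 or 2, at 1.10 to 1.27) and *MAFF* (1.00, adjusted p = 0.000144) were higher and *ATF3* lower, of 12, and 3 were higher without untreated replicate 3. Of 38 interferon-stimulated genes 7 were lower and 2 higher, with *IFIT2* at -1.26 and *OAS3* at 0.76 on the log2 scale, and the counts were 3 lower and 1 higher without KD replicate 2 and 8 lower and 6 higher with correction for GC content. Of 25 cholesterol genes 7 were higher and 1 lower, and the count higher was 4 without KD replicate 2 and 12 with correction for GC content. Of 31 JAK-STAT genes 4 were higher and 3 lower, against 2 and 2 without KD replicate 2. Of 30 hypoxia and glycolysis genes 2 were higher and 2 lower, against 0 and 1 without KD replicate 2. Of 21 MAPK feedback genes 2 were higher and 1 lower, against 3 and 0 without KD replicate 2, 4 and 0 without untreated replicate 3 and 6 and 1 with correction for GC content.

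Among well-expressed coding genes the largest positive change after *BIRC3* belonged to *PI3*, which encodes elafin, an elastase inhibitor. It measured 0.764, 0.738 and 0.781 CPM in untreated, 4.95, 4.08 and 5.14 CPM in TWEAK-treated control and 24.8, 25.7 and 27.1 CPM in KD libraries. The groups formed 3 separate levels with KD cells highest. By edgeR the log2 fold change was 5.08 ± 0.20 in KD cells (33.8-fold, adjusted p = 4.96e-08) and 2.63 in control cells, and the treated groups differed by 2.45 ± 0.17 (adjusted p = 3.15e-05). *BMP6*, a bone morphogenetic protein, had the same order of levels.

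*BMP6* was at 2.36, 2 and 1.59 CPM in untreated, 4.84, 5.23 and 7.05 CPM in TWEAK-treated control and 11.4, 15.9 and 16 CPM in KD libraries (log2 fold change 2.86, adjusted p = 3.72e-05), and KD cells exceeded TWEAK-treated control cells by 1.34 (adjusted p = 0.0109). *SERPIND1*, which encodes heparin cofactor II, was at 3.96, 4 and 3 CPM in untreated and 20.8, 26.6 and 26.7 CPM in KD libraries, and KD cells exceeded TWEAK-treated control cells by 1.52 (adjusted p = 0.00627). *HLA-DQA1*, an MHC class II chain, was higher by 2.18 than in untreated and by 1.06 than in TWEAK-treated control cells (adjusted p = 0.0282). By contrast *CTSS*, the protease cathepsin S, was at 46.1, 45.6 and 42.7 CPM in untreated, 167, 166 and 204 CPM in TWEAK-treated control and 181, 221 and 240 CPM in KD libraries. Its log2 fold changes were 2.26 in KD (adjusted p = 8.57e-06) and 2.00 in control cells, with treated groups that overlapped.

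*TNIP3*, an inhibitor of NF-κB signalling, was at 0.764, 1.54 and 1.28 CPM in untreated and 7.18, 11.2 and 12.1 CPM in KD libraries (log2 fold change 3.07, adjusted p = 0.000127). *TFPI2*, a serine protease inhibitor of the matrix, was at 785, 708 and 766 CPM in untreated and 2785, 3400 and 3473 CPM in KD libraries (log2 fold change 2.10, adjusted p = 1.62e-05). *TNFRSF9*, a TNF-family receptor also called 4-1BB, had a log2 fold change of 2.05 (adjusted p = 0.000434). None of *TNIP3*, *TFPI2* and *TNFRSF9* differed from TWEAK-treated control cells at the threshold, with differences of 0.19, 0.43 and -0.30.

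**Figure D5:**
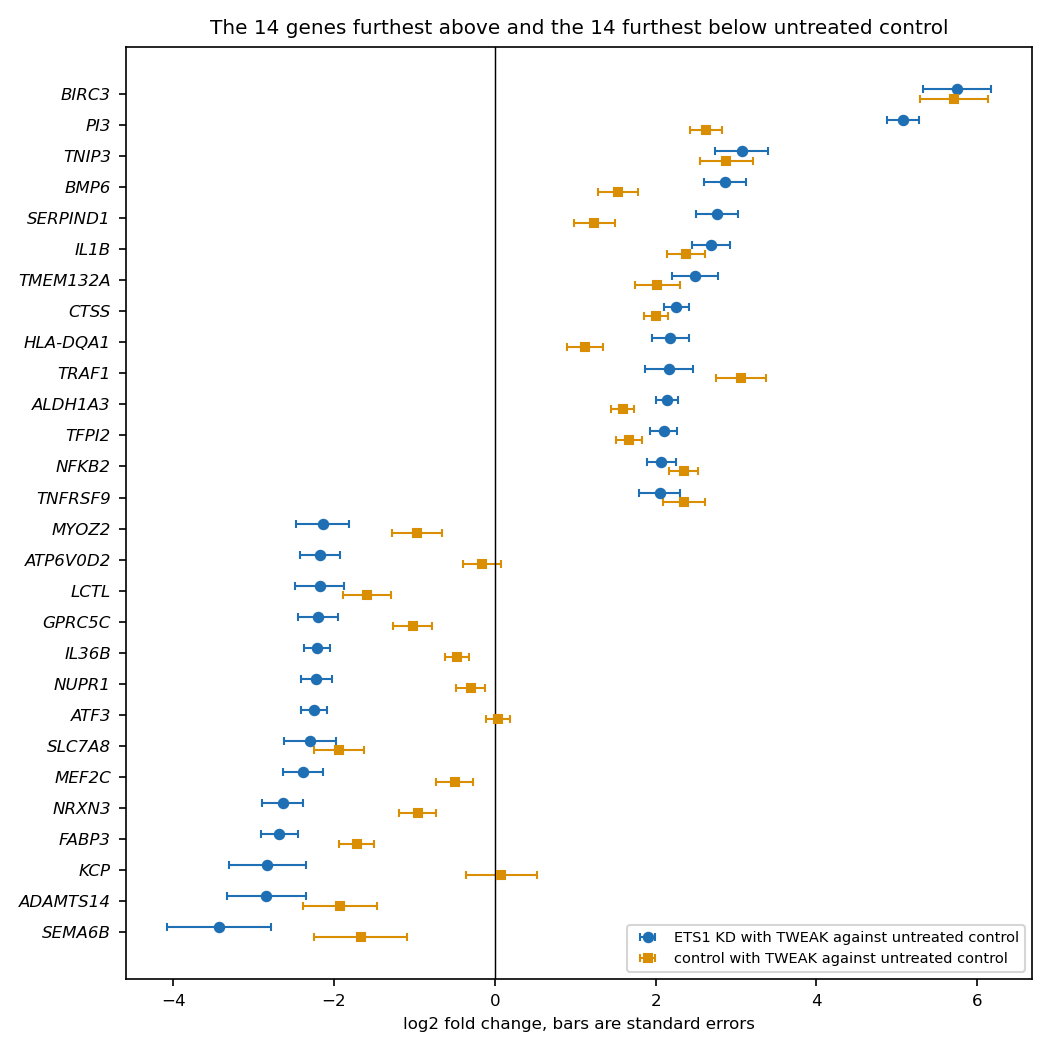
Log2 fold change with SE (x axis) of the 14 well-expressed coding genes with the largest positive and the 14 with the largest negative change in TWEAK-treated *ETS1* KD against untreated control cells, with the value of TWEAK-treated against untreated control cells beside each; the genes were chosen by the first of these values. *BIRC3* has 5.75 and 5.71, *PI3* 5.08 and 2.63, and *ATF3* -2.25 and 0.04.

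At the lower end stood *SEMA6B*, a semaphorin, at 7.02, 9.71 and 10 CPM in untreated, 2.87, 3.53 and 2 CPM in TWEAK-treated control and 1.2, 0.521 and 0.743 CPM in KD libraries. The 3 groups did not overlap and the log2 fold change was -3.43 ± 0.65 (adjusted p = 0.00433). *FABP3*, a fatty acid binding protein, was at 31.4, 30.3 and 24.8 CPM in untreated, 9.65, 8.74 and 7.94 CPM in TWEAK-treated control and 6.22, 3.65 and 3.6 CPM in KD libraries (log2 fold change -2.68, adjusted p = 3.19e-05). In both genes all TWEAK-treated control libraries lay between the other groups.

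Over the 14 genes at the lower end, log2 fold changes in TWEAK-treated control cells ran from -1.94 (*SLC7A8*, an amino acid transporter) to 0.08 (*KCP*), and 6 were called lower there: *ADAMTS14* (-1.92), *SLC7A8*, *FABP3*, *LCTL* (-1.59), *GPRC5C* (-1.02) and *NRXN3* (-0.96). The 14 differed from TWEAK-treated control cells at the threshold in 8 cases. *ATP6V0D2*, a subunit of the vacuolar proton pump, was at 50.7, 54.9 and 51.8 CPM in untreated, 48.3, 46.1 and 46.6 CPM in TWEAK-treated control and 12, 13.2 and 9.87 CPM in KD libraries. By edgeR the log2 fold change was -2.17 (adjusted p = 0.000213), and -2.01 against TWEAK-treated control cells (adjusted p = 0.00145). *IL36B*, a cytokine of the interleukin-1 family, was at 477, 523 and 399 CPM in untreated, 356, 334 and 322 CPM in TWEAK-treated control and 100, 112 and 89.3 CPM in KD libraries. The 3 groups did not overlap and KD libraries were far below the others, with a log2 fold change of -2.21 (adjusted p = 9.69e-06). *MEF2C*, a MADS-box transcription factor, was at 11.2, 11.5 and 7.22 CPM in untreated, 7.35, 7.44 and 6.36 CPM in TWEAK-treated control and 2.02, 1.69 and 1.97 CPM in KD libraries, and was lower than in TWEAK-treated control cells by -1.89 (adjusted p = 0.00227). *KCP*, a secreted modulator of BMP signalling, was at 50.2, 45.1 and 118 CPM in untreated and 14.4, 6.44 and 9.06 CPM in KD libraries (log2 fold change -2.83, adjusted p = 0.00216), and 15.2% of its exon bases overlap *ATP6V1FNB*.

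Untreated replicate 3 and KD replicate 2 differ from their groups, so ratios were also taken on each side of the second principal component, with 1 KD against 2 untreated libraries and 2 KD against 1 untreated library. These are ratios without a test. The log2 ratios were 2.17 and 1.85 for *NFKB2*, 5.72 and 6.28 for *BIRC3*, -2.17 and -2.46 for *ATF3*, -1.38 and -1.67 for *DDIT3*, -1.45 and -0.81 for *IL6*, and 1.01 and 0.77 for *AURKB*. KD and untreated libraries do not overlap for these genes, so the split could not turn a direction and the ratios show only the range of sizes. Across 5 equal groups of genes by GC content the median log2 fold change ran from -0.01 to 0.03, and the number called higher ran from 98 to 283.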

How the data were processed

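Per the labels and the methods, RNA-seq reads were trimmed (Trimmomatic), aligned to hg38 (STAR) and summed over genes (featureCounts); versions, annotation release and strand setting are not given in the sources used here. The authors deposited whole-number counts without normalisation. For ChIP-seq the authors mapped reads with Bowtie2 and called peaks per library with MACS2; each deposited peak has a fold enrichment (ratio) and a −log10 q.

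Samples were grouped by their labels, and the 4 RNA-seq groups include TWEAK-treated *NFKB2* KD cells. Counts of 16879 genes that passed filterByExpr were fitted with edgeR 4.0.16 (R 4.3.3), TMM scaling and the quasi-likelihood test over 12 libraries in 4 groups, and p-values were adjusted by the Benjamini-Hochberg method over all genes tested (threshold 0.05). Alternatives were DESeq2 1.42.0, RLE size factors, no filter, the 6 compared libraries alone, a loess correction for GC content and length (span 0.3), a replicate block and leaving out each library. Gene models were those of GENCODE 44 (62625 of 62649 identifiers matched). Promoter windows came from RefSeq, which held one for 11404 tested genes. Peak overlaps of at least 1 bp were computed with Python 3.11.15 and exact binomial 95% intervals with SciPy 1.17.1. No rows were blank or totals.

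Named genes were ETS1 and genes of its pathway, the 14 coding genes with the largest change in each direction among those called, not overlapping and with an average log2 CPM of at least 2, and up to 5 members per list with the smallest p; further names in the text were chosen after their values were seen. Members and lists were chosen with earlier results of these data known. In a self-test of this comparison with simulated counts for 16879 genes, 200 were changed. Of these, 45% of genes changed 2-fold and 3% of those changed 1.5-fold were recovered. The adjusted p depends on how many genes change, and 2334 were called in the data. These shares therefore do not give the recovery in the data. The authors describe a directional RNA kit in the methods while the labels name a DNA kit, so antisense and overlapping genes are uncertain. Replicates of a group differed by more than sampling noise. Intervals and floors cover counting error only. Some members of the gene lists are not reported here.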

Additional observations from a re-analysis of the deposited data

How the results depend on the processing

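No gene of the 2334 called changed direction under any setting; 2315 kept their call with DESeq2, 2298 with RLE size factors, 1847 with no filter on low counts, 2061 with the 6 compared libraries alone, 2228 with correction for GC content and length, and 1171 (without KD replicate 3) to 1793 (without untreated replicate 3) when a library was left out. Of 136 named genes called, 107 to 128 kept their call when a library was left out. Against 1050 higher genes, the correction gave 2001, the correction with a replicate block 2495, and a fold of at least 1.5 with the adjusted p 631; leaving out a library gave 529 to 1038 higher and 649 to 1095 lower genes. For TWEAK-treated against untreated control cells (261 higher, 259 lower), DESeq2 gave 431 and 509, the correction 473 and 539, the correction with a replicate block 659 and 793, an unadjusted p of at most 0.05 with a fold of at least 1.5 557 and 640, no filter 509 lower, and leaving out a library 113 to 238 and 71 to 183. For KD against control cells under TWEAK (43 higher, 191 lower), DESeq2 gave 158 and 376, no filter 111 and 358, the correction 204 and 310, the correction with a replicate block 363 and 381, the unadjusted rule 194 and 763, and leaving out a library 11 to 26 and 91 to 137. Counts over all genes were lower in every fit that left out 1 library. The causes of these and the other shifts were not tested.

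The main fit took the samples as unpaired, and the deviations do not settle whether replicate numbers pair them. Those of same-numbered KD and untreated libraries correlated at -0.109, 0.398 and 0.324, and those of libraries with differing numbers at -0.511 to 0.301. A replicate block gave 1347 higher and 1445 lower genes in the main comparison, 341 and 316 for TWEAK-treated control cells and 48 and 204 between the treated groups.

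The percentage of higher genes with a p52 peak (3.14 guide 1, 7.24 guide 2) was 7.81 and 9.9 with a peak in either library, 9.33 for guide 2 with a window of 2000 bp before to 500 bp after the start, and 3.14 to 7.81 and 7.81 to 9.33 with a library left out. That of lower genes with an ETS1 peak in untreated cells (6.23) was 16 with either library, 3.58 at a −log10 q of at least 5, and 7.01 to 15.2 with a library left out. Pol II in both KD and neither untreated library at higher genes (1.71) was 1.81 to 16.1 with a library left out. The opposite at lower genes (3.12) was 4.13 to 16. A looser rule took genes with Pol II in either KD library and dropped only those with it in both untreated libraries, and gave 26.3. Its opposite at lower genes gave 27. Both conditions were loosened there, so these values do not show the effect of the KD libraries alone. Genes under about 1 CPM rest on few counts, which limits the precision of their fold changes.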
